A study of Rattus norvegicus with 10 samples.

Results

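The genes of cholesterol and fatty acid synthesis were followed in the hypothalamic paraventricular nucleus of dehydrated and control rats. The gene list named 44 genes: 18 enzymes of sterol synthesis, 18 enzymes of fatty acid synthesis, elongation, desaturation and activation, 5 sterol sensing genes, and 3 genes of sterol transport, storage and turnover. A gene was measured by the probe sets whose annotation gave its symbol alone, and the probe set with the highest mean signal over the 10 arrays stood for it. This gave 42 genes among 14217 genes with such a probe set in the series, and the 42 probe sets were among the 18629 whose mean signal reached 24.1, the level above which probe sets were tested. Hmgcs1, the synthase at the entry of the mevalonate pathway, and Elovl7, an elongase, had no probe set with that symbol and were not analysed here.

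All animals were male Sprague Dawley rats of 10 to 12 weeks. In the dehydrated group the rats had been dehydrated for 3 days, and the control group is labelled as control with no further treatment named. Each of the 5 arrays per group carried RNA from the pooled nuclei of 5 animals, and the series describes the pools as coming from separate groups of animals, so that n counts pools, not rats. The sample labels, which were followed, name the paraventricular nucleus; the supraoptic nucleus is named in the series' design text instead. Of 10 genes on a magnocellular and paraventricular list, 8 had tested probe sets, vasopressin, oxytocin, Crh, Trh and Sim1 among them. The transcription factor genes Otp and Pou3f2 lay under the signal filter. All arrays had been scaled to a common level, with array medians from 36.4 to 39.1. Control replicate 5 stood apart from the other arrays on the first principal component, and on the second, dehydrated replicate 2 lay on the side of control replicates 1 to 4. The labels name no batch of arrays. The numbers in the sample titles run in 1 unbroken series in the dehydrated group and in another in control replicates 1 to 4, and that of control replicate 5 lies apart from both. What these numbers stand for is not stated, and any effect of a batch cannot be told apart from that of dehydration.

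Cholesterol in the brain is made within the brain, because lipoproteins of the blood hardly cross the blood-brain barrier, and in the adult its main store is myelin. Acetyl-CoA is built into mevalonate, then into squalene, and squalene is closed to lanosterol and trimmed to cholesterol. The same acetyl-CoA feeds the synthesis of fatty acids, which are then lengthened by elongases, desaturated, and activated by coupling to coenzyme A. Both branches are driven by the sterol regulatory element binding proteins (SREBPs), membrane-bound factors held in the endoplasmic reticulum by Insig proteins and carried to the Golgi by Scap when sterols run low. Srebf2 encodes the form that acts mainly on sterol genes and Srebf1 the forms that act mainly on fatty acid genes.

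In 5 of the 42 genes (11.9%) all dehydrated pools lay on one side of all control pools, against 3.36% of all probe sets tested. Their promoters are shown because both branches are represented among them and they moved in both directions. The sterol branch is represented by Sc5d alone, whose groups separated in 1 of its 3 probe sets. The windows are the 250 bases before the start of the RefSeq gene in build GRCr8, 5′ to 3′ on the gene's strand. They lie at chr1:216252442-216252691, plus strand, for Fads1; at chr1:253118127-253118376, plus strand, for Scd2; at chr3:164464453-164464702, plus strand, for Acss2. The window of Elovl5 lies at chr8:87670914-87671163, plus strand, and that of Sc5d at chr8:51538278-51538527, minus strand. Capitals mark the letters CCAAT, which the factor NF-Y binds, and GGGCGG, which Sp1 binds, on either strand (ATTGG and CCGCCC on the other). No marked match overlapped another.
Fads1: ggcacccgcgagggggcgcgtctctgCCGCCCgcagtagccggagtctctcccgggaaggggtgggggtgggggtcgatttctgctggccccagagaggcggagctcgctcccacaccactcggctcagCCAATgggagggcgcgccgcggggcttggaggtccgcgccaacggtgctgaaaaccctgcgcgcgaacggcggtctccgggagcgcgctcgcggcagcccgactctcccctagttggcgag
Scd2: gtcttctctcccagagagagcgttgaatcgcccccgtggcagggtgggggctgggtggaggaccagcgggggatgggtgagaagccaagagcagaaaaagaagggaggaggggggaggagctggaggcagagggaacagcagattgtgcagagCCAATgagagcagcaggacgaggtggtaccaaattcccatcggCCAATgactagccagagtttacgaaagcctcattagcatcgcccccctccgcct
Acss2: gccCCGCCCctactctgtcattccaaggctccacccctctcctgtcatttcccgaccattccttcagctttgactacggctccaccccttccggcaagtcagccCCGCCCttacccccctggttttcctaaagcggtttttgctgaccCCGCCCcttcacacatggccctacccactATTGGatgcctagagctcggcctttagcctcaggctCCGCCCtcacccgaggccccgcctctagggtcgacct
Elovl5: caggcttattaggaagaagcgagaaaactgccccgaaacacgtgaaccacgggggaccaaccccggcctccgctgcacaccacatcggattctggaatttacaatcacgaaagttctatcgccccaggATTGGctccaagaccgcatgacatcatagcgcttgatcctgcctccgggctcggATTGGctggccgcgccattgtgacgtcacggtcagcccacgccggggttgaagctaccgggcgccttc
Sc5d: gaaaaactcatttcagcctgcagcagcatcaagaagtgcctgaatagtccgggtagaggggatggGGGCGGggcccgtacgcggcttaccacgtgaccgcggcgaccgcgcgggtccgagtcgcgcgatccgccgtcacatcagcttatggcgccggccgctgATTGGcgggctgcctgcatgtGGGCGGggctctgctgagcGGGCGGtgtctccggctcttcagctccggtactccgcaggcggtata

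NF-Y and Sp1 are known to act beside SREBPs at many promoters of both branches. Windows were found in RefSeq for 35 of the 42 genes, those of Pmvk, Fdft1, Sqle, Stard4, Acaca, Fasn and Elovl6 being missing. CCAAT was present on either strand in 24 of the 35 (68.6%), against 34.3% of 27457 windows of the same length, with 1 start taken per gene. GGGCGG was present in 27 of the 35 (77.1%), against 32.4%. The 27457 windows were not limited to genes on the array or past the signal filter, while all 35 genes had passed it. The shares are therefore not those of genes with like signals, and whether the excess belongs to lipid genes was not tested. The letters TCACNCCAC, a form of the sterol regulatory element, were in 0 of the 35 windows and in 0.976% of all. At so low a share, 35 windows are too few to show a lack of these letters. In the Fads1 window a CCAAT began 121 bases before the start and a match to GGGCGG on the other strand began 224 bases before it. Scd2 had CCAAT at 97 and 54 bases before the start and no GGGCGG in this window. Acss2 had 1 CCAAT and 4 GGGCGG matches, Elovl5 had CCAAT matches at 122 and 68 bases and no GGGCGG, and Sc5d had 1 CCAAT and 3 GGGCGG matches. A match of letters shows only that these letters are there.

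Signals were compared as log2(signal + 3.72), and a difference is that of dehydrated minus control pools on this scale, with its standard error. Of the 42 genes 1 passed the threshold of 0.05 after Benjamini-Hochberg adjustment over all 18629 probe sets (limma). It was lower in dehydrated pools. Over all probe sets 0.58% passed, 0.397% higher and 0.183% lower. The share of members that passed therefore rests on a single gene. At an unadjusted p under 0.05 there were 11 of 42 genes (26.2%), 1 higher and 10 lower, where the share over all probe sets was 12.7%, 6.7% higher and 6.01% lower. The 42 were measured more tightly, with a median standard error of 0.088 against 0.115 over all probe sets. A difference of the same size thus gave a smaller p among them and separated the groups more easily. How much of the larger shares this makes up was not tested. Differences were negative for 29 of the 42 (69.0%) and for 51.2% of all probe sets, and the median was -0.066 for the 42 and -0.0048 for all probe sets. Counted like the members, with 1 probe set per gene, 10468 genes were tested. Of these 50.4% were negative, with a median of -0.0015. An unadjusted p under 0.05 was reached by 12.9% of them, and groups did not overlap in 3.62%. The median of the 42 was -0.10 without dehydrated replicate 5, -0.0996 without control replicate 1 and -0.039 without control replicate 5. Differences ran from -0.35 to 0.14, which is -21.5% to 10.2%.

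Both branches held more negative than positive differences. Of 17 measured sterol enzymes 12 were negative (median difference -0.053), and of 17 fatty acid enzymes 12 were negative too (median -0.10). At an unadjusted p under 0.05 there were 5 sterol enzymes, all lower, and 5 fatty acid enzymes, 4 lower and 1 higher. Each count is 29.4% of its branch, against 12.7% of all probe sets. The groups did not overlap in 1 sterol and 4 fatty acid enzymes, 5 of all 42 genes (11.9%), against 3.36% of all probe sets. In 4 of the 5 the dehydrated pools were lower and in 1 higher, where the shares over all probe sets were 1.42% and 1.94%. The sterol median depended on single arrays: it was -0.11 without control replicate 1, -0.11 without control replicate 3, -0.096 without dehydrated replicate 5 and -0.031 without control replicate 5. Without control replicate 1 or 3 it was below that of the fatty acid enzymes (-0.10 and -0.086), so the order of the branches was not stable, and their difference was not tested. Without control replicate 5 and dehydrated replicate 2, the median of the fatty acid enzymes was -0.037 and that of the sterol enzymes -0.042, and 10 genes, all lower, had an unadjusted p under 0.05.

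**Figure D1:**
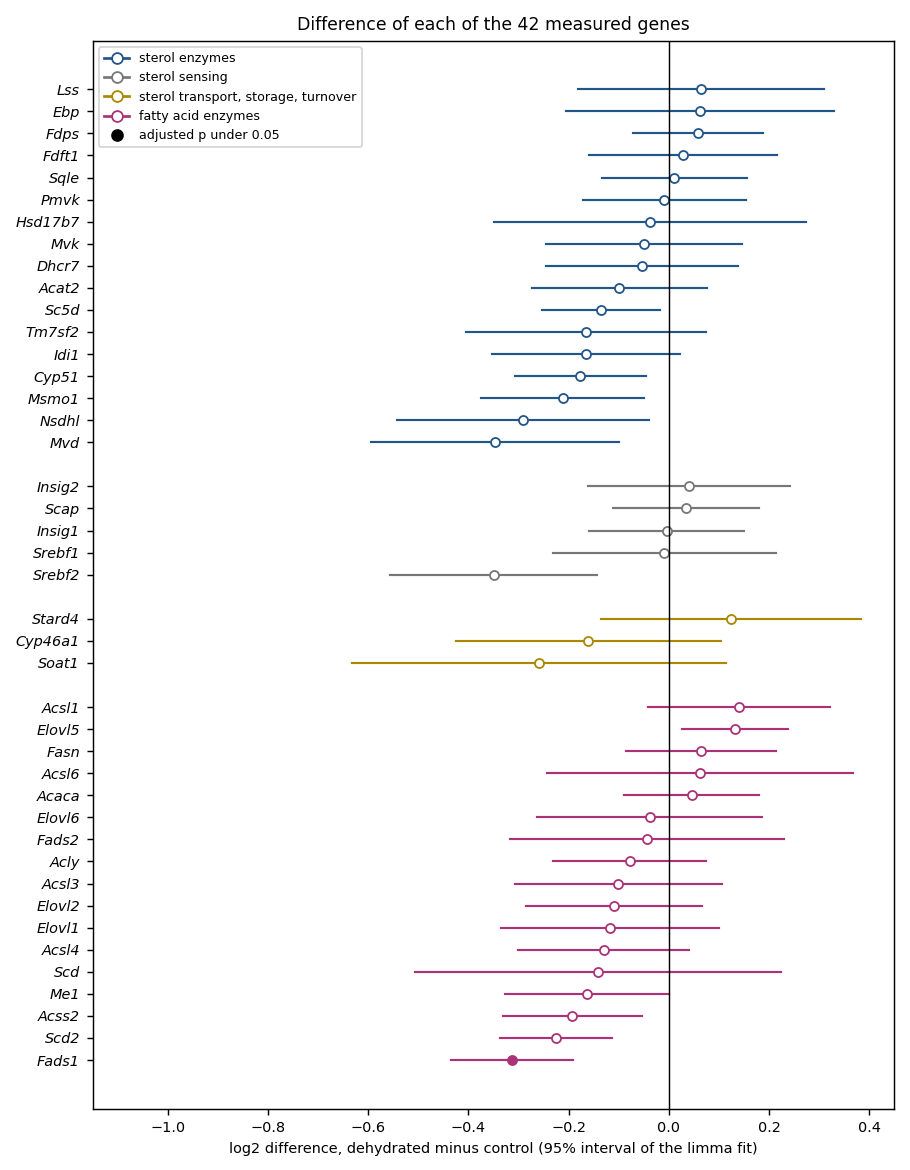
Log2 difference of dehydrated minus control pools for each of the 42 genes (x axis), with the 95% interval of the limma fit as a line, grouped by branch. The filled point is Fads1, the only gene past the adjusted threshold, and most points of both branches lie left of 0, none beyond -0.35.

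Among the desaturases, which put double bonds into fatty acyl chains, Fads1 fell. Fads1 encodes the desaturase that makes arachidonic acid. Its signals were 624.1, 642.2, 580.0, 653.5 and 680.8 in dehydrated replicates 1 to 5 and 776.8, 773.7, 812.4, 832.6 and 756.9 in control replicates 1 to 5. The highest dehydrated pool lay under the lowest control pool. The mean fell from 790 ± 31.0 to 636 ± 37.5 (SD, n = 5 each), a log2 difference of -0.31 ± 0.06 or -19.5% (limma, adjusted p = 0.0191). The call ended without dehydrated replicate 3 (adjusted p = 0.0602), without control replicate 3 (0.0612), without control replicate 4 (0.0623), and in the fit without a variance trend (0.109), while the difference stayed between -0.34 and -0.28 with each array left out in turn.

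Scd2, the stearoyl-CoA desaturase most abundant in brain, was also lower in every dehydrated pool without passing. Its signals were 2001.5, 2245.7, 2255.4, 2149.8 and 2192.3 in dehydrated pools and 2438.3, 2681.5, 2354.9, 2557.3 and 2648.9 in control pools. The groups did not overlap, and the difference was -0.22 ± 0.05 (adjusted p = 0.0665). After quantile normalization it passed (adjusted p = 0.0118). The 3 other tested probe sets of Scd2 gave -0.29, -0.39 and -0.41, with adjusted p from 0.228 to 0.460. Scd, the related desaturase that dominates in liver and fat, had signals of 25.2, 39.7, 32.3, 36.6 and 46.7 in dehydrated and 43.2, 30.8, 46.7, 48.2 and 31.7 in control pools. The groups of Scd overlapped (-0.14 ± 0.17, adjusted p = 0.775). Fads2, the desaturase that acts before Fads1 in the same chain of reactions, had overlapping signals of 52.9 to 79.2 and 61.3 to 80.6 and a difference of -0.04, with a 95% interval from -0.32 to 0.23. The interval of Fads2 holds the difference seen for Fads1.

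Markers of other cells were measured in the same pools, and apart from Ermn none of the oligodendrocyte, precursor, astrocyte, microglial and neuronal markers passed the adjusted threshold. Over all probe sets 51.2% were negative. At an unadjusted p under 0.05, 6.7% were higher and 6.01% lower. Of 13 tested oligodendrocyte markers 12 were negative (median difference -0.28), 8 of them lower at that p. Their differences ran from -0.63 to 0.017. Ermn, a myelin-associated gene, fell by 0.63 ± 0.12 (limma, adjusted p = 0.0255). The summed signal of the 13 ran from 7790 to 8214 in dehydrated and from 8446 to 10048 in control pools. None of the markers was at 0 on any array, and the brightest weigh most in the sum. Cldn11, a protein of myelin tight junctions, differed by -0.28 (adjusted p = 0.0721) and Mobp, a myelin protein, by -0.23 (adjusted p = 0.117). Precursor markers were negative in 5 of 5, with sums over 7 markers of 1542 to 1728 in dehydrated and 1677 to 1903 in control pools. Among 11 astrocyte markers 8 were negative (median -0.10), with summed signals of 13470 to 15059 and 14054 to 15663. Gfap differed by -0.38 (limma, adjusted p = 0.0553), Aqp4 by -0.16 (0.249) and Gjb6 by 0.22 (0.304). Among 8 tested microglial markers 6 were negative (median -0.075), with sums over 12 markers of 950 to 1092 and 1063 to 1187. Aif1 differed by -0.42 (limma, adjusted p = 0.0880) and Laptm5 by -0.49 (0.159), the latter with groups that did not overlap. Neuronal markers were negative in 8 of 12, with sums from 11581 to 13353 and from 12582 to 13471. Genes of a magnocellular and paraventricular list were positive in 8 of 8 (median 0.42). At an unadjusted p under 0.05 (limma) 5 were higher, namely Avp, Oxt, Sst, Vgf and Pdyn, while Crh, Trh and Sim1 had p above it. Vgf and Pdyn, genes of secreted neuropeptides, rose by 0.62 ± 0.06 (adjusted p = 6.21e-05) and 0.81 ± 0.10 (adjusted p = 0.000572). Whether these rises reflect more RNA per cell or a larger share of these cells was not tested. The summed signal of the 10 genes of that list ran from 12399 to 15312 in dehydrated and from 9519 to 12406 in control pools. Markers of neighbouring regions, given at the end, were negative in 5 of 7 (median -0.36). The part of all these marker differences in the lower signals of Fads1, Scd2 and the other lipid genes was not tested. In pooled tissue, fewer cells of a type and less RNA per cell cannot be told apart.

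**Figure D2:**
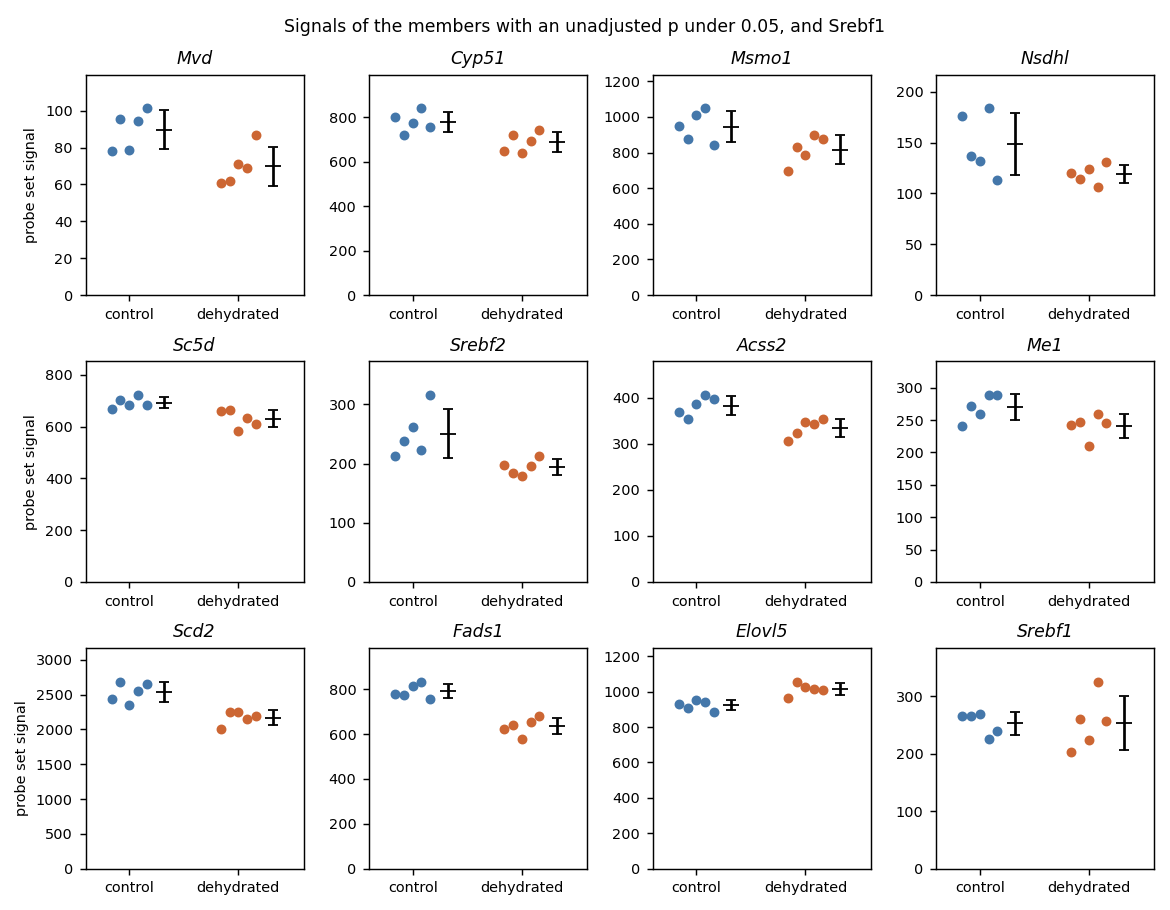
Probe set signals of each pool (points; y axis from 0) for the 11 genes with an unadjusted p under 0.05 and for Srebf1, with the mean and SD of 5 pools beside them. The groups are apart for Fads1, Scd2, Acss2, Sc5d and Elovl5, the last with the dehydrated pools higher.

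Enzymes that supply and build the chain gave a mixed picture. Acss2 makes acetyl-CoA from acetate. Its signals were 305.0, 322.6, 346.1, 343.2 and 352.7 in dehydrated and 368.8, 354.2, 385.3, 405.4 and 396.5 in control pools. The groups met closely but did not overlap, and the difference was -0.19 ± 0.07 (adjusted p = 0.229). Me1, the malic enzyme that provides NADPH for fatty acid synthesis, had signals of 242.7, 247.4, 209.4, 259.6 and 245.8 against 241.1, 272.6, 260.0, 288.8 and 288.8. Only dehydrated replicate 3 lay under the lowest control pool, and the difference was -0.16 ± 0.08 (adjusted p = 0.390), with -0.20 ± 0.08 in the second probe set of the gene (adjusted p = 0.312).

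The core enzymes of the branch overlapped between groups. Fasn, the fatty acid synthase, had signals of 734.0, 652.9, 680.9, 763.3 and 872.4 in dehydrated and 699.5, 691.1, 718.2, 729.2 and 687.1 in control pools. Dehydrated replicate 5 was the highest and dehydrated replicate 2 the lowest of all 10, and the difference was 0.06 ± 0.07, with a 95% interval from -0.09 to 0.21 (adjusted p = 0.748). A second probe set of Fasn gave -0.05 ± 0.13. Acaca, the acetyl-CoA carboxylase that makes malonyl-CoA, differed by 0.05 (interval from -0.09 to 0.18), and Acly, which makes cytosolic acetyl-CoA from citrate, by -0.08 (interval from -0.23 to 0.07). The intervals of these 3 chosen probe sets leave out the difference of -0.31 seen for Fads1. That of the second Fasn probe set, from -0.32 to 0.23, holds it. Fads1 itself had an interval from -0.44 to -0.19, which that of Acly overlaps. Differences between genes were not tested. A missed threshold does not show that levels were equal.

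Of the elongases, Elovl5 was the 1 gene among the 42 with every dehydrated pool above every control pool. Elovl5 lengthens polyunsaturated chains, between the steps of Fads2 and Fads1. Its signals were 961.3, 1055.0, 1024.8, 1013.4 and 1008.8 in dehydrated and 932.8, 909.9, 953.3, 938.9 and 885.4 in control pools. The lowest dehydrated pool was close to the highest control pool, and the difference was 0.13 ± 0.05 or 9.54% (adjusted p = 0.282). Elovl1, Elovl2 and Elovl6 differed by -0.12, -0.11 and -0.04 (adjusted p from 0.609 to 0.909), each with overlapping groups. Elovl6 lengthens saturated chains, and its second probe set gave -0.05. Of the acyl-CoA synthetases that activate long-chain fatty acids, Acsl1 was at 0.14 ± 0.09 (adjusted p = 0.518) and its other tested probe set at 0.27 ± 0.10 (adjusted p = 0.274). Acsl3, Acsl4 and Acsl6 were at -0.10, -0.13 and 0.06, and none of the 4 synthetases passed.

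Of 6 measured enzymes of the mevalonate pathway 5 were negative (83.3%, against 51.2% of all probe sets). Of the 6, 0 passed in limma and 1 had an unadjusted p under 0.05 (16.7%, against 12.7% of all). Mvd, the decarboxylase that makes isopentenyl diphosphate, had signals of 60.7, 61.7, 71.0, 68.9 and 87.1 in dehydrated and 78.3, 95.3, 78.6, 94.7 and 101.4 in control pools. In Mvd 4 dehydrated pools lay under all controls, and dehydrated replicate 5 lay among them. The difference was -0.35 ± 0.12 (adjusted p = 0.221), the most negative among the enzymes. Idi1, the isomerase that follows, was at -0.17 ± 0.09 (adjusted p = 0.447), with -0.24 ± 0.14 in its second probe set (adjusted p = 0.477). Acat2, the thiolase of the cytosol, the kinases Mvk and Pmvk, and Fdps, which makes farnesyl diphosphate, lay between -0.10 and 0.06 (adjusted p from 0.650 to 0.972). The second probe set of Mvk was at 0.41 ± 0.20 (adjusted p = 0.402), opposite in sign to the first.

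Between squalene and cholesterol, 7 of 11 enzymes were negative (63.6%, against 51.2% of all probe sets). At an unadjusted p under 0.05 there were 4, all lower (36.4%, against 6.01% of all), and 0 of the 11 passed in limma. Cyp51, the lanosterol demethylase, had signals of 646.2, 720.9, 637.9, 691.1 and 742.5 in dehydrated and 798.7, 720.2, 774.1, 840.4 and 754.4 in control pools. Dehydrated replicates 2 and 5 reached into the control range, and the difference was -0.18 ± 0.06 (adjusted p = 0.241), with -0.12 ± 0.09 in the second probe set. Msmo1, the methylsterol monooxygenase that takes the next methyl groups off, had 694.8, 831.3, 785.7, 896.5 and 875.9 against 949.3, 875.4, 1012.3, 1049.6 and 844.9. In Msmo1 3 of the 5 dehydrated pools lay under all controls, with a difference of -0.21 ± 0.08 (adjusted p = 0.259).

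Nsdhl, the dehydrogenase that works with Msmo1, had 120.0, 114.5, 124.1, 106.4 and 130.6 in dehydrated and 176.2, 137.1, 132.2, 184.0 and 113.7 in control pools. Control replicate 5 was the lowest control and lay within the dehydrated range, while control replicates 1 and 4 were well above the rest. The difference was -0.29 ± 0.12 (adjusted p = 0.32), and the second probe set of Nsdhl gave 0.08 ± 0.15 (adjusted p = 0.856), the opposite sign. Sc5d, the desaturase of lathosterol, had 659.1, 663.1, 584.8, 634.6 and 610.4 against 669.8, 704.2, 683.6, 722.0 and 684.0. Its groups did not overlap, and the difference was -0.14 ± 0.06 (adjusted p = 0.322). The 2 other probe sets of Sc5d were near 0, at -0.0030 and 0.03 (adjusted p = 0.993 and 0.959), so the groups separated in 1 of its 3 probe sets.

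The other sterol enzymes overlapped between groups. Sqle, the squalene epoxidase that limits the rate of this part of the pathway, had signals of 308.3, 265.5, 281.3, 299.8 and 292.2 in dehydrated and 270.8, 284.1, 275.8, 288.1 and 317.8 in control pools. Control replicate 5 was the highest and dehydrated replicate 2 the lowest, and the difference of 0.01 ± 0.07 had a 95% interval from -0.13 to 0.16. Fdft1, the squalene synthase, was at 0.03, and its second probe set at -0.19. Lss, which closes squalene epoxide to lanosterol, was at 0.06, the isomerase Ebp at 0.06, and Dhcr7, the reductase of the last step, at -0.05. Tm7sf2, a sterol reductase, was at -0.17 ± 0.11, and Hsd17b7, a sterol ketoreductase, at -0.04 ± 0.15, with 0.19 ± 0.14 in its second probe set.

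**Figure D3:**
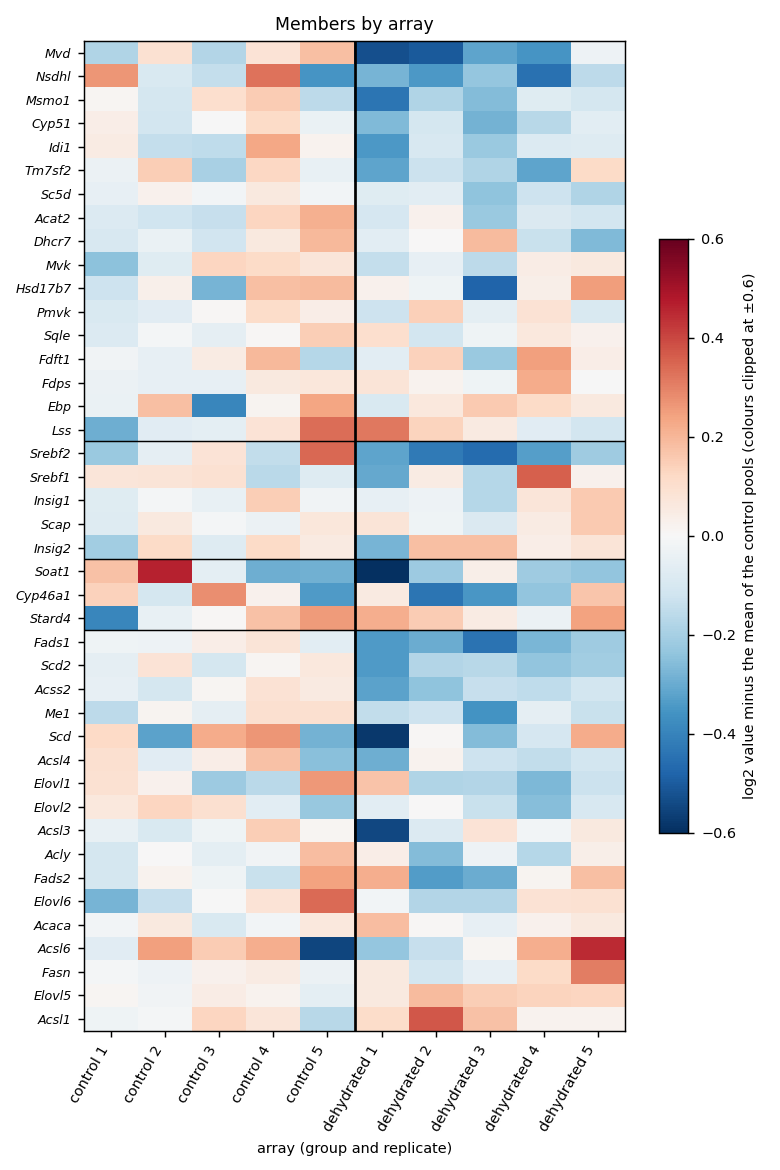
Log2 value of each gene (rows, by branch and difference) in each array (columns) minus its mean over the control pools, blue for lower and red for higher. Fads1, Scd2, Acss2, Me1, Mvd, Idi1, Cyp51, Msmo1, Nsdhl, Sc5d and Srebf2 are below their control mean in all 5 dehydrated arrays. In control replicate 4, 0 of the 17 sterol enzymes are blue.

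Taken array by array, the members did not move as one. The median deviation of the 17 sterol enzymes from their control means was -0.10, -0.048, -0.22, -0.073 and -0.064 in dehydrated replicates 1 to 5, and -0.048, -0.051, -0.059, 0.11 and 0.069 in the controls. Control replicates 1 to 3 thus overlapped the dehydrated pools, and in control replicate 4 0 of the 17 enzymes lay under the control mean. For the fatty acid enzymes the medians were -0.062, -0.12, -0.14, -0.054 and 0.035 in dehydrated and -0.024, -0.012, 0.014, 0.072 and 0.011 in control pools. Dehydrated replicate 3 was the lowest array for both branches. In dehydrated replicate 5 the fatty acid enzymes lay above all but 1 of the controls.

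Of the 5 sterol sensing genes, Srebf2 was lower without passing and the other 4 had overlapping groups with differences near 0. Srebf2 had signals of 198.3, 183.8, 178.9, 196.7 and 213.3 in dehydrated and 212.3, 238.6, 262.5, 223.2 and 315.8 in control pools. In Srebf2 4 dehydrated pools lay under all controls, dehydrated replicate 5 passed control replicate 1 by 1 unit of signal, and control replicate 5 was the highest. The difference was -0.35 ± 0.10 or -21.5% (adjusted p = 0.131), the most negative of the 42 genes, and -0.26 without control replicate 5 (adjusted p = 0.141). Its other probe set lay under the signal filter.

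Srebf1 had signals of 203.2, 261.2, 223.5, 325.2 and 257.0 in dehydrated and 265.7, 266.3, 269.0, 225.0 and 239.2 in control pools. The dehydrated pools included both the highest and the lowest of the 10, and the difference was -0.01 ± 0.10, with a 95% interval from -0.23 to 0.21. Insig1, itself an SREBP target that holds Scap in the endoplasmic reticulum, had 323.8, 328.8, 297.2, 352.9 and 374.0 against 318.6, 332.8, 325.5, 371.9 and 330.8. The groups of Insig1 overlapped throughout, with a difference of -0.0047 ± 0.07 and an interval from -0.16 to 0.15. Insig2 was at 0.04 ± 0.10, with 0.27 ± 0.12 in its second probe set (adjusted p = 0.381), and Scap at 0.03 ± 0.07.

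None of the 3 handling genes passed. Cyp46a1, the neuronal hydroxylase through which cholesterol leaves the brain, was at -0.16 ± 0.13 (adjusted p = 0.621). Soat1, which esterifies cholesterol for storage, had signals from 21.3 to 50.9 over the 10 arrays, and was at -0.26 ± 0.18 (adjusted p = 0.564). Stard4, a sterol carrier of the cytosol, was at 0.12 ± 0.12 (adjusted p = 0.713).

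**Figure D4:**
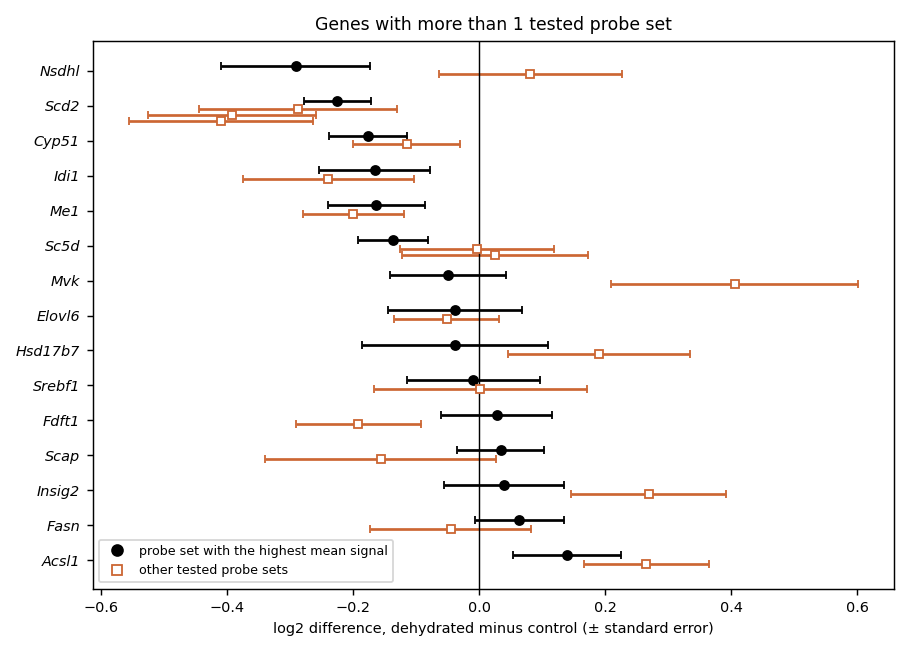
Log2 difference ± standard error of the probe set that stood for the gene (filled circles) and of the other tested probe sets (open squares) for the 15 genes with more than 1. In 7 of the 15 all probe sets had the same sign, Scd2, Me1 and Idi1 among them, and in 8 they did not.

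Probe sets of the same gene were a second measurement. The 15 genes with more than 1 tested probe set had 18 other tested ones, 0 of which passed in limma, and a further 10 lay under the filter. All signs were the same in 7 genes and mixed in 8. For the lower genes of the fatty acid branch with a second probe set, Scd2 and Me1, the second measurement had the same sign. For the negative sterol enzymes it had the same sign for Cyp51 and Idi1, was opposite for Nsdhl, Mvk and Hsd17b7, and split for Sc5d. Fads1, Acss2, Mvd and Msmo1 had a single probe set.

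Other genes of the pathways were taken from lists that hold none of the 42. Of 4 tested further enzymes of the mevalonate and sterol routes 3 were positive (median 0.066), the smallest p being those of Acat1, the mitochondrial thiolase, at 0.09 (adjusted p = 0.670), and Dhdds, which builds dolichol, at -0.12 (adjusted p = 0.739). Among 6 genes of SREBP processing, 2 had an unadjusted p under 0.05 (33.3%, against 12.7% of all probe sets), both higher. They were the segregase Vcp (0.20 ± 0.08, limma, adjusted p = 0.292) and its partner Ufd1 (0.16, adjusted p = 0.387), which serve many other proteins. Mbtps1, a protease that cleaves SREBPs, was at -0.07. Of 13 genes of liver X receptor action, sterol efflux and lysosomal sterol handling 7 were negative (median -0.031), with 0 at an unadjusted p under 0.05 by limma, Lipa, the lysosomal lipase, being at 0.17 and the sterol exporter Abca1 at -0.12. None of these 3 lists had a gene past the adjusted threshold (0 in limma).

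Of 21 tested further fatty acid genes, 13 were positive (median 0.11), with 6 higher and 1 lower at an unadjusted p under 0.05. These 7 are 33.3% of the list, against 12.7% of all probe sets, and 0 passed the adjusted threshold in limma. Mlycd, which breaks down malonyl-CoA, was at 0.35 ± 0.12 (adjusted p = 0.236), and Fabp3, a fatty acid binding protein, at 0.17 (adjusted p = 0.353). Mid1ip1, which helps acetyl-CoA carboxylase to polymerise, was at -0.17 ± 0.07 (adjusted p = 0.298). Of 7 tested genes in a list for myelin lipids 3 were lower at an unadjusted p under 0.05 (42.9%, against 6.01% of all probe sets). Pllp, a myelin proteolipid, was at -0.45 ± 0.12 (adjusted p = 0.0952), Ugt8, which makes galactosylceramide, at -0.40 (adjusted p = 0.256) and Gal3st1, which sulfates it, at -0.37 (adjusted p = 0.372). The other 4 genes of that list lay between -0.020 and 0.11.

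**Figure D5:**
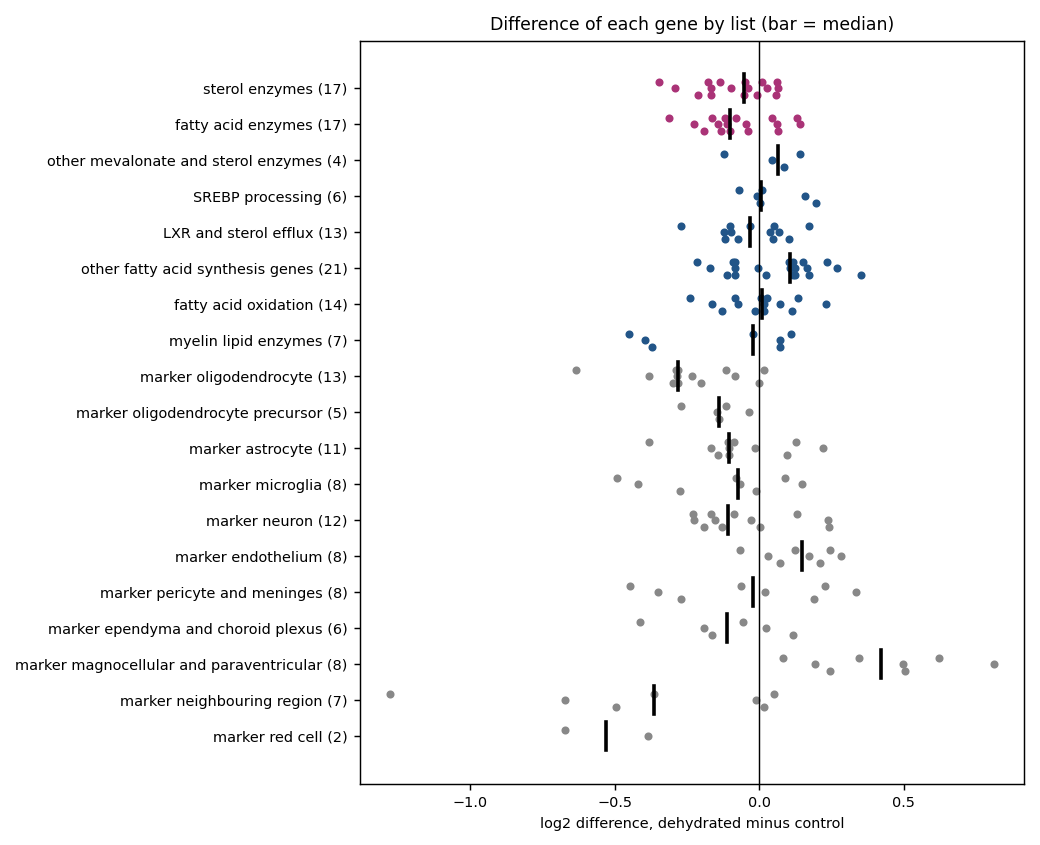
Log2 difference of each tested gene (points) in the 2 branches, in the other lipid lists and in the marker lists, with the median as a bar and the number of genes in brackets. The medians are -0.053 for sterol enzymes, -0.10 for fatty acid enzymes, 0.11 for further fatty acid genes, -0.28 for oligodendrocyte markers and 0.42 for magnocellular and paraventricular genes.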

How the data were processed

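The authors deposited 1 linear intensity (probe set signal) per probe set and array of the Affymetrix Rat Genome 230 2.0 array, with GCOS 1.2 named in the submitters' processing notes; how signals were computed is not given in the sources used here, and no detection calls were used. The mean after trimming 2% at each end was 100 on every array. Whether background had been subtracted is not stated either. The constant of 3.72 added to the signals before taking log2 shrinks differences of dim probe sets. Of 31099 probe sets, 57 control probe sets were left out, and 20826 of the other 31042 had 1 gene symbol in the platform annotation.

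Signals were used as log2(signal + 3.72), the pseudocount being 0.1 of the median array median. Probe sets at or above the 40th percentile of mean signal (24.1) were kept, and limma 3.58.1 in R 4.3.3 (lmFit, then eBayes with a trend) gave two-sided p-values, adjusted by Benjamini-Hochberg over 18629 probe sets; the fit was tested on simulated data. Alternatives were other scalings, pseudocounts, filters and variance models, array weights, other probe sets, and arrays left out. Values of every array are given for genes whose groups did not overlap or with an unadjusted p under 0.05. They are also given for Srebf1, Srebf2, Insig1, Hmgcs1 (not analysed here), Sqle, Fasn, Scd and Scd2. From other lists up to 3 genes with the smallest p are named, but all 10 of the magnocellular and paraventricular list are. The members and lists were chosen with earlier results of these data known. Replicates were numbered in accession order and pair nothing. The number of arrays limits the precision.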

Additional observations from a re-analysis of the deposited data

Results flagged for a closer look

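Among 84 groups of 5 pools (42 genes in both groups), 1 held a pool farther from the others than Dixon's limit of 0.71 of the group's range, where chance gives about 1 in 20. It was the Insig1 signal of control replicate 4, at 371.9, where the other control pools lay from 318.6 to 332.8 (gap of 0.734 of the range).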

How the results depend on the processing

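The count of members past the adjusted threshold was 1 (Fads1), 2 (Fads1 and Scd2) with quantile normalization, and 0 without the variance trend, where fewer probe sets passed overall (45 against 108). With each array left out in turn it ran from 0 to 1. The count at an unadjusted p under 0.05 stayed within 1.5 times the main count in every alternative run. The median of the fatty acid enzymes moved to -0.037 without dehydrated replicate 2 and control replicate 5 together. With single arrays left out it ran from -0.11 to -0.073, that of the sterol enzymes from -0.11 to -0.031 and that of all 42 genes from -0.10 to -0.039. The 60th percentile filter left the differences themselves unchanged and only dropped dim probe sets, which put the sterol median at -0.099, the value of Acat2. The causes of the moves with arrays left out were not tested. No alternative run turned the sign of a branch median.

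Some differences changed sign, none of them past the adjusted threshold. Most were near 0 as reported, but Nsdhl (-0.29) and Sc5d (-0.14), both at an unadjusted p under 0.05, were not, and each turned in another probe set. With array weights Pmvk was at 0.0018, Hsd17b7 at 0.0023, Srebf1 at 0.0029, Elovl6 at 0.013 and Acsl6 at -0.013. Without the 2 arrays that stand apart Fdft1 was at -0.042, Hsd17b7 at 0.0061, Acly at 0.014, Fads2 at 0.089, Elovl6 at 0.080 and Acsl6 at -0.026. Median centring gave 0.0057 for Pmvk, 0.010 for Insig1 and 0.0057 for Srebf1, and quantile normalization 0.0050 for Pmvk and 0.0039 for Srebf1. The mean over probe sets gave 0.18 for Mvk, -0.082 for Fdft1, 0.076 for Hsd17b7 and -0.061 for Scap. Other probe sets gave 0.41 for Mvk, -0.19 for Fdft1, 0.081 for Nsdhl, 0.19 for Hsd17b7, 0.025 for Sc5d, 0.0017 for Srebf1, -0.16 for Scap and -0.045 for Fasn.

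Leaving out single arrays, differences ran from -0.047 to 0.020 for Pmvk, -0.027 to 0.090 for Fdft1, -0.012 to 0.047 for Sqle, -0.0078 to 0.15 for Lss, -0.11 to 0.072 for Hsd17b7 and -0.036 to 0.12 for Ebp. The range was from -0.11 to 0.00026 for Dhcr7, -0.045 to 0.037 for Insig1, -0.013 to 0.12 for Insig2, -0.10 to 0.066 for Srebf1, -0.11 to 0.029 for Fads2, -0.11 to 0.046 for Elovl6, -0.15 to 0.010 for Acsl3 and -0.076 to 0.14 for Acsl6. No paired analysis was possible because the labels carry no replicate numbers.

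The standard errors of the 42 differences ran from 0.050 to 0.18. Soat1 and Scd, whose signals lay nearest the filter, had the widest intervals.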

Other observations

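Fatty acid oxidation was measured beside synthesis. Of 14 tested genes 8 were positive (median difference 0.011), with 1 higher and 1 lower at an unadjusted p under 0.05 and 0 past the adjusted threshold in limma. The share of 14.3% at that unadjusted p was near the 12.7% over all probe sets. Acadm, the medium-chain acyl-CoA dehydrogenase of mitochondria, had a mean signal of 257 ± 12.9 in dehydrated and 218 ± 7.76 in control pools (SD, n = 5 each), with groups that did not overlap and a difference of 0.23 ± 0.07 (adjusted p = 0.135). Acaa2, the thiolase of the last step of the same cycle, was at -0.24 ± 0.08 (adjusted p = 0.247). Endothelial markers were positive in 7 of 8 (median 0.15), with sums from 1383 to 1508 in dehydrated and from 1123 to 1551 in control pools, and Slco1a4, a transporter of the vessel wall, was at 0.28 ± 0.07 (adjusted p = 0.0919).

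Of the lists of pericytes and meninges and of ependyma and choroid plexus, 4 of 8 and 4 of 6 tested markers were negative. Both tested red cell genes were negative, and Hbb fell by 0.67 ± 0.13 (adjusted p = 0.0305). Of 7 tested markers of neighbouring regions 5 were negative (median -0.36). At an unadjusted p under 0.05, 4 of them were lower (57.1%, against 6.01% of all probe sets), and 0 passed the adjusted threshold in limma. Hdc, the histamine-forming enzyme, was at -0.67 ± 0.19 (adjusted p = 0.135) with groups that did not overlap. The transcription factor gene Nkx2-1 was at -0.50 ± 0.16 (limma, adjusted p = 0.205), and Hcrt, the peptide gene of the lateral hypothalamus, at -1.28 ± 0.44 (adjusted p = 0.233). Signals of Hcrt ran from 235 to 1027 in dehydrated and from 609 to 2508 in control pools.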
